A study of Homo sapiens with 9 samples.

Results

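The ZFP36 family and the proteins that bind AU-rich elements were followed as 10 genes: ZFP36, ZFP36L1, ZFP36L2, ELAVL1, KHSRP, HNRNPD, AUH, CNOT1, CNOT7 and XRN1. They were taken by name, with every probe set that the platform annotation assigns to a single one of these symbols. This gave 40 probe sets of the 41091 that carry 1 symbol, and 10 genes of 19775. Signals came from Affymetrix Human Genome U133 Plus 2.0 arrays of LiSa-2, a human liposarcoma cell line grown on plates in medium with bovine serum. The 9 arrays fall into 3 groups of 3. One group received phosphate-buffered saline (PBS) and was harvested at 24 h. The others received 400 µg/mL of HAase, a hyaluronidase from bovine testis that cuts the matrix sugar polymer hyaluronan, for 6 h or for 24 h. The PBS arrays are all from 24 h, so in the comparison of 6 h HAase with PBS the enzyme and the harvest time cannot be told apart. Between the HAase groups the length of exposure and the harvest time cannot be told apart either. The arrays come from 1 cell line, no group among them received inactivated enzyme, and nothing in the labels tells if the 3 samples of a group came from different cultures. The p-values therefore cover only the spread among these arrays, part or all of which may be technical.

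AU-rich elements are stretches with repeated AUUUA pentamers in the 3′ untranslated regions of many short-lived mRNAs, among them those of cytokines and immediate early genes. Proteins of the ZFP36 family bind these stretches through paired CCCH zinc fingers and recruit the CCR4-NOT complex, which shortens the poly(A) tail. CNOT1 is the scaffold of that complex, CNOT7 is one of its deadenylases, and XRN1 degrades the RNA from its 5′ end after the cap has been removed. ELAVL1 (HuR) binds similar sequences and is known mostly for stabilising the RNA. KHSRP promotes decay, and HNRNPD (AUF1) can act in either direction. The mRNA of ZFP36 carries AU-rich elements itself.

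Sequence context was available from RefSeq (GRCh38.p14) for the 250 bases before the annotated start of ZFP36, ZFP36L1, KHSRP, HNRNPD, AUH and XRN1, in 7 windows. The windows of ZFP36 and ZFP36L1 are shown because these genes were the members higher after HAase at both times, and ZFP36L1 has 2 annotated starts. Each is written 5′ to 3′ on the strand of the gene, and capitals mark the cyclic AMP response element TGACGTCA.
ZFP36, chr19:39406597-39406846, plus strand: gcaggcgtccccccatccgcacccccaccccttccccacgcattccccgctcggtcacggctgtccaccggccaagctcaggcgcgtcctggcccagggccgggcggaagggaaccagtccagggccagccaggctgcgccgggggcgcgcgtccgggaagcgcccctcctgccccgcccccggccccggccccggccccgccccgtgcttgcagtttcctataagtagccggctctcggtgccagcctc
ZFP36L1, chr14:68793417-68793666, minus strand: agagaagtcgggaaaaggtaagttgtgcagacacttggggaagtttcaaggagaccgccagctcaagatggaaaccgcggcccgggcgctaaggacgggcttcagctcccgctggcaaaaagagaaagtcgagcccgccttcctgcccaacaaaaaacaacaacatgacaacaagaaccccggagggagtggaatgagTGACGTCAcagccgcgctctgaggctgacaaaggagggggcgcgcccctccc
ZFP36L1, chr14:68796244-68796493, minus strand: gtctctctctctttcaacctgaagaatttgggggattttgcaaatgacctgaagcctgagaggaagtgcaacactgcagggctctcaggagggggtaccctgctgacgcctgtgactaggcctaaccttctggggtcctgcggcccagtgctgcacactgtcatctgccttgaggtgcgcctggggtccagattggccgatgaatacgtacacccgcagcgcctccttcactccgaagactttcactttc
The GC content of the ZFP36 window was 76.4%, above the upper quartile of 68.0% over 35116 windows of the same length. The ZFP36L1 windows had 58.4% and 56.4%, near the median of 58.0%. The first ZFP36L1 window held TGACGTCA with its first base 52 bases before the start, a sequence found in 1.65% of all windows. GGGCGG, the core bound by SP1, occurred at 3 places in the ZFP36 window, on either strand, at 149, 76 and 52 bases before the start, and 42.6% of all windows held it. The AP-1 sequence TGANTCA (6.57% of all windows), the EGR1 sequence GCGNGGGCG (8.41%), the SRF CArG box (1.16%) and the NF-kappaB sequence (9.96%) were not in the 3 windows shown. Both strands were searched, an EGR1 match can share bases with an SP1 match, and each match or its lack describes letters alone.

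The levels below are linear signals in arbitrary units, scaled per array before deposit. Each gene is represented by its brightest probe set, and levels are not compared between genes. Fold changes are on the scale of log2(signal + 16), with adjusted p-values from limma (Benjamini-Hochberg over 13842 genes) and a threshold of 0.05. The brightest of 27 Bacillus subtilis control probe sets on the same array, between 34.2 and 65.0, served as the control level. All 10 genes lay above it on all 9 arrays. Arrays of 1 group correlated at 0.9887 to 0.9906 and arrays of different groups at no more than 0.9729. The log2 difference between 3′ and 5′ control probe sets of ACTB, which reflects RNA integrity, changed against PBS by -0.28 at 6 h and by -0.12 at 24 h. The corresponding values for GAPDH were -0.03 and -0.12. For ACTB at 6 h and GAPDH at 24 h all HAase arrays lay below all PBS arrays. There the exact permutation p was 0.1, the smallest that 3 against 3 allows. It was 0.3 for ACTB at 24 h and GAPDH at 6 h. The part of these differences in the results was not tested. Of 10 adipocyte markers, 9 lay above control on all PBS arrays, and LEP on none. Their summed signal was 81030 to 86140 with PBS, 70420 to 73540 at 6 h and 44100 to 49670 at 24 h. FABP4 and CD36, with PBS means of 33300 and 25140, held most of this sum. They changed by -0.36 and -0.67 on the log2 scale at 24 h, beside -3.74 for PLIN1 and -2.80 for CEBPA. All 9 markers tested were lower at 24 h, where 22.9% of all genes were. Of 5 markers of the 12q amplicon of liposarcomas, 4 lay above control on all PBS arrays. The other, HMGA2, did so on 1 of 3 PBS arrays. Its mean was 51.03 with PBS, 724.6 at 6 h and 1643 at 24 h. The other 4 did not pass the test at 24 h, and of them only YEATS4 passed at 6 h, as lower.

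After 6 h of HAase, 2 of the 10 genes were higher than with PBS, ZFP36 and ZFP36L1, and 3 were lower, ZFP36L2, AUH and CNOT1, in a comparison where 42.4% of all genes tested passed (15% higher and 27.4% lower). At 24 h ZFP36 and ZFP36L1 were again higher and ZFP36L2 and HNRNPD lower, 2 in each direction, where 40.4% of all genes passed (17.5% higher and 22.9% lower). The shares of members called were thus near those of all genes and are no result about the members as a group. Groups did not overlap for 6 of the 10 genes at 6 h, beside 54.2% of all genes, and for 7 at 24 h, beside 52%. The median log2 fold change of the 10 was -0.06 at 6 h and 0.03 at 24 h, beside -0.08 and -0.03 over all genes. Among the 30 probe sets tested, 3 passed as higher and 6 as lower at 6 h, where 33.4% of all probe sets passed (13% higher and 20.4% lower). At 24 h 3 were higher and 2 lower, where again 33.4% passed (14.5% higher and 18.9% lower). Both comparisons use the same PBS arrays. In RNA from whole cultures, fewer cells that carry a transcript and less of it per cell cannot be told apart. The count of 4 genes at 24 h fell to 2 without PBS replicate 2 or without 24 h replicate 2.

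Within the ZFP36 family the members moved in opposite directions: ZFP36 and ZFP36L1 rose and ZFP36L2 fell at both times. ZFP36, also called tristetraprolin, is the founding member of the family. Its signal was 1419, 1465 and 1616 on the PBS arrays and 2308, 2898 and 2320 on the 6 h arrays. It was 2094, 2013 and 1887 on the 24 h arrays. The 3 groups did not overlap, with PBS lowest and 6 h highest. The mean rose from 1500 ± 103 to 2508 ± 337 at 6 h (SD, n = 3 each), which is 0.73 ± 0.10 on the log2 scale (SE; adjusted p = 8.02e-04). At 24 h the mean was 1998 ± 104, and the log2 fold change against PBS was 0.41 ± 0.10 (adjusted p = 0.0131). These values rest on a single probe set, the only one that carries this symbol alone. Both calls against PBS held under all 19 alternatives of processing or left-out arrays, at 24 h with an adjusted p of up to 0.0471. With 1 probe set, the alternative with the mean over probe sets cannot change the fold change.

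ZFP36L1, which shares the zinc finger domain and is known for controlling differentiation and growth, had the largest rise of the 10 genes at 6 h. The PBS arrays gave 2068, 1918 and 2578, and the 6 h arrays 3971, 4378 and 4405. The 24 h arrays gave 2970, 2983 and 2658. All 6 h arrays lay far above the rest, and the lowest 24 h array lay just above the highest PBS array. The log2 fold change was 0.96 ± 0.11 (SE) at 6 h (adjusted p = 3.37e-04) and 0.40 ± 0.11 at 24 h (adjusted p = 0.0239). A second probe set, 211965_at, was dim. It gave 42.55, 30.46 and 32.74 with PBS, all at or below the control level, and 95.65, 117.3 and 118.4 at 6 h, so that it was at least 1.94-fold higher. At 24 h it gave 53.44, 45.99 and 49.12, with 2 of 3 arrays above control, and was at least 1.01-fold higher than with PBS. The other 2 probe sets of ZFP36L1 lay at or below the control level on every array and were not tested. With the mean over all 4 probe sets the log2 fold change was 0.50 at 6 h (adjusted p = 0.00193) and 0.15 at 24 h (adjusted p = 0.204). The 24 h call did not survive leaving out either of PBS replicates 1 and 2 or either of 24 h replicates 1 and 2 (adjusted p up to 0.0748), nor a fit without the 6 h arrays (adjusted p = 0.0515). The 6 h call held under all 19 alternatives.

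ZFP36L2, the third family member and known from blood stem cells and lymphocytes, moved the opposite way. Its signal was 4102, 4432 and 4264 with PBS, 2175, 2331 and 2412 at 6 h, and 2563, 2576 and 2603 at 24 h. Every HAase array lay below every PBS array, and the 6 h arrays were lowest. The mean was 4266 ± 165 with PBS, 2306 ± 120 at 6 h and 2581 ± 20.4 at 24 h (SD, n = 3 each). This gave a log2 fold change of -0.88 ± 0.06 (SE) at 6 h (adjusted p = 1.42e-05) and -0.72 ± 0.06 at 24 h (adjusted p = 2.96e-05). A second probe set, 201369_s_at, gave 366.4, 354.2 and 328.5 with PBS, 198, 177.2 and 166.5 at 6 h, and 237.8, 198.6 and 210.4 at 24 h. It passed the test in the same direction at both times, and its groups did not overlap with PBS either. The remaining 2 probe sets were too dim to be tested. Both calls held under all 19 alternatives.

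**Figure D1:**
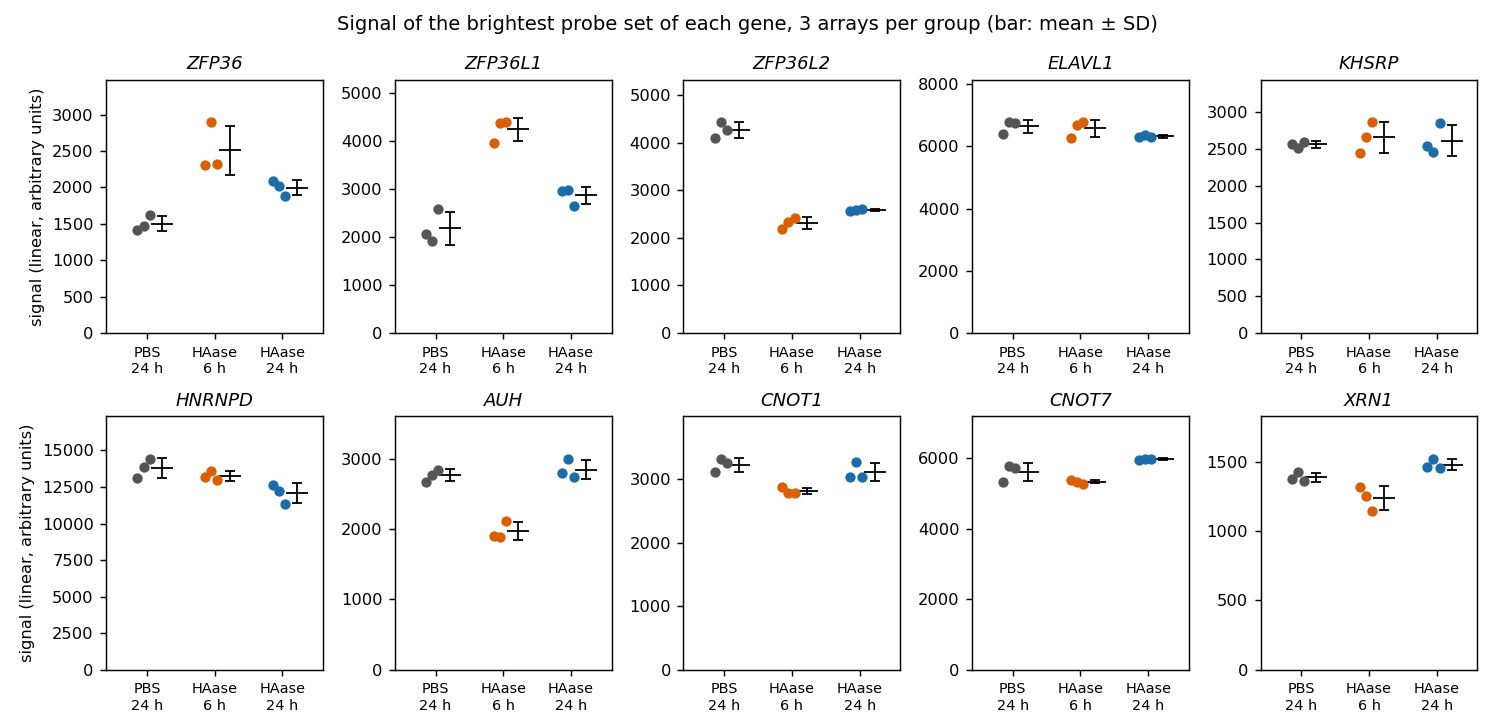
Signal of the brightest probe set of each of the 10 genes (y axis, linear, arbitrary units, from 0) on each array, by group (x axis: PBS at 24 h, HAase at 6 h, HAase at 24 h). Points are arrays and bars the mean ± SD of 3 arrays. ZFP36 and ZFP36L1 are highest at 6 h, ZFP36L2 is lowest at 6 h, and AUH is low at 6 h only, with 1879 to 2112 against at least 2671 on all other arrays.

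Among the other RNA-binding members, only AUH passed the test at 6 h and only HNRNPD at 24 h. ELAVL1, the stabilising protein HuR, is the member that competes with ZFP36 proteins for AU-rich stretches. It gave 6404, 6766 and 6743 with PBS, 6272, 6692 and 6781 at 6 h, and 6311, 6369 and 6288 at 24 h. The 6 h and PBS arrays overlapped, and the 24 h arrays lay below all PBS arrays by a small margin. The log2 fold change was -0.01 at 6 h (95% interval -0.13 to 0.11, adjusted p = 0.867) and -0.07 at 24 h (95% interval -0.19 to 0.05, adjusted p = 0.327). Of the 3 ELAVL1 probe sets tested, 0 passed at either time, and 0 had an unadjusted limma p under 0.05.

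KHSRP, a protein with KH domains that brings mRNAs to the decay machinery, gave 2575, 2515 and 2601 with PBS, 2443, 2670 and 2869 at 6 h, and 2536, 2454 and 2859 at 24 h. The 3 groups overlapped. Its log2 fold change was 0.05 at 6 h (95% interval -0.13 to 0.24, adjusted p = 0.654) and 0.03 at 24 h (95% interval -0.16 to 0.21, adjusted p = 0.83). A dimmer probe set of the gene, 227555_s_at, went another way. It gave 46.95, 126.9 and 93.92 with PBS, 23.37, 43.43 and 24.82 at 6 h, and 141.2, 75.6 and 74.27 at 24 h. It passed the probe-set test as lower at 6 h (log2 fold change -1.12, adjusted p = 0.0377), where 1 of 3 arrays lay above the control level. Another, 212303_x_at, gave -0.25 at 6 h (95% interval -0.50 to -0.01) and did not pass after adjustment (adjusted p = 0.105). Of the 4 KHSRP probe sets tested, 2 were lower and 0 higher at 6 h at an unadjusted limma p under 0.05. KHSRP probe sets therefore disagreed at 6 h. The brightest and the dimmest, with 0.05 and 0.13, showed no such difference.

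HNRNPD, known as AUF1, binds AU-rich RNA as several isoforms. It gave 13100, 13850 and 14440 with PBS, 13210, 13600 and 12970 at 6 h, and 12640, 12260 and 11310 at 24 h. The 24 h arrays lay below all others, while the 6 h and PBS arrays overlapped. Against PBS the difference at 24 h was -0.19 ± 0.06 on the log2 scale (SE; adjusted p = 0.0401), a 1.14-fold lower signal, and at 6 h it was -0.06 (95% interval -0.20 to 0.09, adjusted p = 0.513). The 24 h call was lost in 12 of 19 alternatives, with an adjusted p of up to 0.253. It was lost without PBS replicate 2 or 3, without any of the 6 h replicates, and without 24 h replicate 2 or 3 (adjusted p up to 0.121). In the fit over probe sets 0 of its 6 tested probe sets passed at 24 h, where 3 had an unadjusted p under 0.05, all lower, and the brightest had an adjusted p of 0.0638. The 6 values at 24 h ran from -0.19 to 0.11 on the log2 scale.

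AUH was first described as a protein that binds AU-rich RNA, and its product is also a mitochondrial hydratase of leucine breakdown. Its signal was 2671, 2767 and 2841 with PBS, 1905, 1879 and 2112 at 6 h, and 2798, 2999 and 2737 at 24 h. The 6 h arrays stood below all others, and the 24 h arrays overlapped with PBS. On average it changed by -0.49 ± 0.07 (SE) on the log2 scale at 6 h (adjusted p = 6.58e-04) and 0.04 at 24 h (95% interval -0.11 to 0.19, adjusted p = 0.649). AUH has 1 probe set. The 6 h call held under all 19 alternatives, of which the mean over probe sets cannot change its fold change.

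Of the decay enzymes and their scaffold, CNOT1 passed the test at 6 h and none of the 3 genes passed at 24 h. CNOT1, on which the deadenylases and the ZFP36 proteins assemble, gave 3110, 3324 and 3254 with PBS, 2873, 2781 and 2789 at 6 h, and 3038, 3277 and 3036 at 24 h. The 6 h arrays lay below all PBS arrays. The log2 fold change at 6 h was -0.20 ± 0.05 (SE; adjusted p = 0.0194), a 1.15-fold lower signal. The call was lost with equal array medians, with the mean over probe sets (adjusted p = 0.526), and when any of PBS replicates 2 and 3 and 6 h replicates 2 and 3 was left out (adjusted p up to 0.067). The gene's other probe sets, 200861_at and 1554052_at, gave -0.08 and 0.04 at 6 h and did not pass.

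CNOT7, one of the catalytic deadenylases of the complex, gave 5324, 5789 and 5731 with PBS, 5381, 5336 and 5289 at 6 h, and 5948, 5995 and 5992 at 24 h. The 24 h arrays were the highest, above every PBS array. Its log2 fold change was -0.07 at 6 h (95% interval -0.19 to 0.04, adjusted p = 0.281) and 0.09 at 24 h (adjusted p = 0.184), and neither passed. XRN1, the 5′ to 3′ exonuclease of the cytoplasm, gave 1375, 1425 and 1364 with PBS, 1314, 1251 and 1147 at 6 h, and 1462, 1522 and 1454 at 24 h. Its 3 groups did not overlap, with 6 h lowest and 24 h highest. The log2 fold change was -0.17 at 6 h (95% interval -0.31 to -0.03, adjusted p = 0.0603) and 0.09 at 24 h (adjusted p = 0.283), short of the threshold at both times. A second XRN1 probe set, 225814_at, passed the probe-set test as lower at 6 h (log2 fold change -0.27, adjusted p = 0.0313). It gave 1347, 1595 and 1449 with PBS and 1293, 1162 and 1170 at 6 h.

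**Figure D2:**
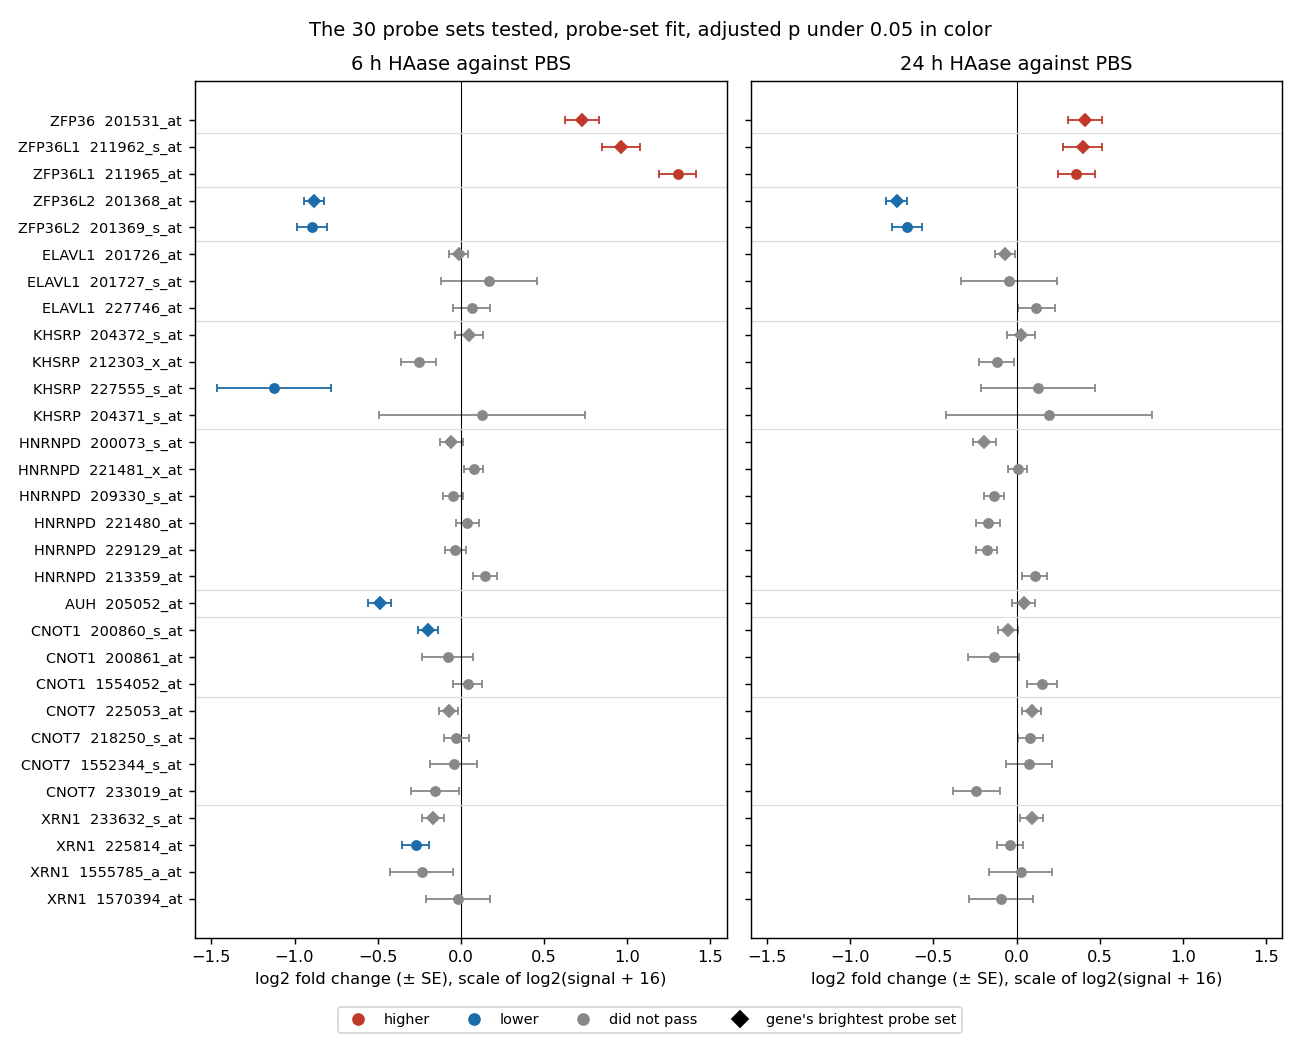
Log2 fold change against PBS (x axis, ± SE, from the fit over 26614 probe sets) of the 30 member probe sets tested, with 6 h on the left and 24 h on the right. Red is higher, blue lower and gray did not pass, and diamonds mark the brightest probe set of a gene. Both tested probe sets of ZFP36L1 lie right of 0 and both of ZFP36L2 left of 0 at both times, while the probe sets of KHSRP spread over both sides at 6 h.

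In size, the family changes at 6 h stood high among all genes. The 6 h change of ZFP36L1 was larger in absolute log2 terms than that of 92.3% of all genes tested, that of ZFP36L2 than 91%, and that of ZFP36 than 86.5%. AUH followed at 73.3%, CNOT1 at 38.9% and ELAVL1 at 2.63%. At 24 h ZFP36L2 stood at 85%, ZFP36 at 68% and ZFP36L1 at 66.9%. The spread within groups was small for most members. The residual SD on the log2 scale was 0.039 for CNOT7, 0.043 for ELAVL1 and 0.048 for CNOT1, and 0.146 for ZFP36L1 at most. The median over all genes was 0.128. It covers genes down to a mean signal of 34.7 and was not matched to the signal of the members. The comparison therefore shows no trait of the members.

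**Figure D3:**
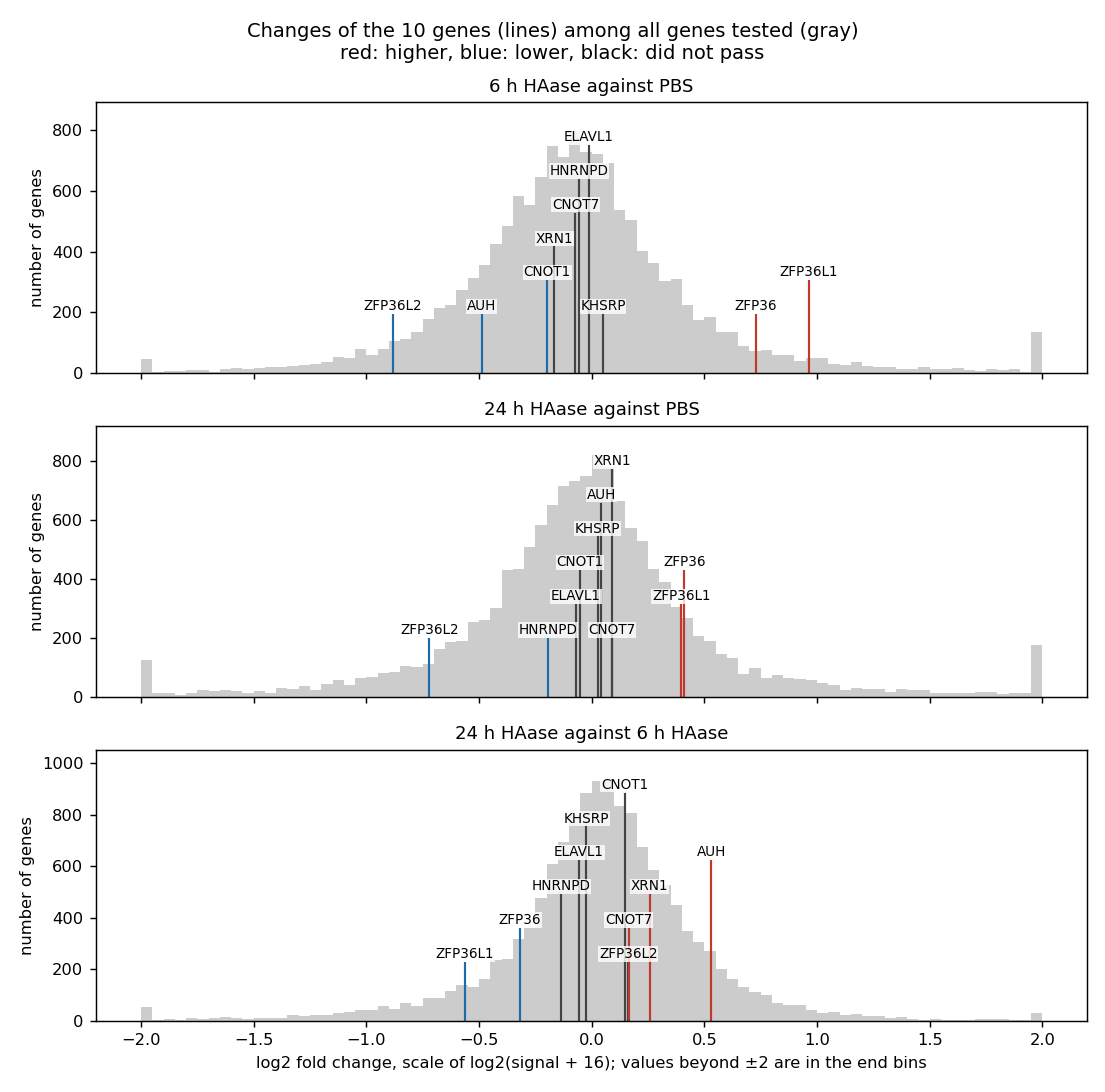
Number of genes (y axis) by log2 fold change (x axis; values past 2 in either direction are in the end bins) for the 13842 genes tested, in gray, in the 3 comparisons from top to bottom. Lines mark the 10 genes, in red where higher, blue where lower and black where the test was not passed. ZFP36L1 and ZFP36 sit in the right shoulder and ZFP36L2 in the left shoulder at 6 h, and all 3 sit closer to 0 at 24 h.

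Set against each other, the HAase groups differed for 5 of the 10 genes, 3 higher and 2 lower at 24 h than at 6 h, where 33.1% of all genes passed (19.8% higher and 13.3% lower). Arrays did not overlap for 8 of the 10, beside 46% of all genes. AUH differed most in adjusted p: it was higher at 24 h by a log2 fold change of 0.53 ± 0.07 (SE; adjusted p = 6.28e-04). XRN1 was higher by 0.26 ± 0.06 (adjusted p = 0.014) and CNOT7 by 0.16 ± 0.05 (adjusted p = 0.0362). ZFP36L1 was lower at 24 h, with -0.56 ± 0.11 (adjusted p = 0.00659), and ZFP36 with -0.32 ± 0.10 (adjusted p = 0.0443). The difference of 0.16 ± 0.06 for ZFP36L2 missed the threshold (adjusted p = 0.0603). The calls of AUH and ZFP36L1 held under all 19 alternatives. That of ZFP36 was lost in 12 (adjusted p up to 0.123), among them leaving out any array other than 6 h replicate 1. That of CNOT7 was lost in 11, among them leaving out any HAase array (adjusted p up to 0.094), and with the mean over its probe sets the difference was 0.02. That of XRN1 was lost with the mean over its probe sets (0.17, adjusted p = 0.167). The count of 5 genes fell to 3 without 6 h replicate 2 or 3 or any 24 h replicate. In the fit over probe sets, where 24.9% passed (13.6% higher and 11.3% lower), 3 of the 30 were higher and 2 lower at 24 h, and ZFP36 missed the threshold (adjusted p = 0.0598).

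By order of mean level, ZFP36, ZFP36L1 and KHSRP were highest at 6 h and lowest with PBS, and for KHSRP no neighbouring groups in that order differed beyond their spread. ZFP36L2 and CNOT1 had the order PBS, 24 h, 6 h from high to low. For ZFP36L2 the difference between 24 h and 6 h did not pass the test, and for CNOT1 no neighbours in that order did. ELAVL1 and HNRNPD had the order PBS, 6 h, 24 h, and no neighbours in that order passed. AUH, CNOT7 and XRN1 were highest at 24 h and lowest at 6 h, with no difference past the test between 24 h and PBS. Of the 3 only AUH passed the gene test between PBS and 6 h. XRN1 missed it there (adjusted p = 0.0603), while its probe set 225814_at passed the probe-set test as lower (adjusted p = 0.0313).

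The levels most like those of the family members, by the root mean square of the log2 difference over 9 arrays after centring on PBS, were as follows. For ZFP36 they were PUM3 (0.099), BZW1 (0.102) and PPP2R3A (0.105). For ZFP36L1 they were IRF2BP2 (0.093), LONRF1 (0.103) and TANK (0.109). For ZFP36L2 they were FASTKD1 (0.066), EMC9 (0.069) and FAIM (0.077). IRF2BP2, for example, had a log2 fold change of 0.99 at 6 h and 0.44 at 24 h, and FASTKD1 -0.93 and -0.68.

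The rest of the pathway was read from lists of genes by role. Among 21 tested genes for other proteins that bind AU-rich or U-rich RNA, 3 rose and 5 fell at 6 h, while 15% and 27.4% of all genes did. At 24 h 5 rose and 1 fell, while 17.5% and 22.9% of all genes did. The median log2 fold changes were 0.01 and 0.11. The 5 that rose at 24 h became 3 without PBS replicate 2 or 3, 6 h replicate 3 or 24 h replicate 2. TIA1, a stress granule protein that represses translation, fell at 6 h (-0.75, adjusted p = 2.31e-04) and at 24 h (-0.39, adjusted p = 0.00602). ZC3H12C, of the Regnase family of endonucleases, rose at 6 h (0.61, adjusted p = 0.00435) and at 24 h (0.98, adjusted p = 3.46e-04; 0.48 and adjusted p = 0.0241 with the mean over its probe sets). ZC3HAV1, an antiviral zinc finger protein, fell at 6 h (-0.62, adjusted p = 0.00271; -0.29 with the mean over its probe sets) and had a log2 fold change of 0.00 at 24 h. HNRNPAB, a relative of HNRNPD, rose at both times (0.50 and 0.24, adjusted p = 7.82e-05 and 0.00368).

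Of 18 tested deadenylation genes, 3 rose and 3 fell at 6 h (15% and 27.4% of all genes), and 3 rose and 1 fell at 24 h (17.5% and 22.9% of all genes). TOB1, an adaptor that links CNOT7 to its targets, fell from a mean of 4677 to 2158 at 6 h (-1.11, adjusted p = 1.17e-05) and stood at 3489 at 24 h (-0.42, adjusted p = 0.00167). PAN2, the deadenylase of the other cytoplasmic complex, fell at 6 h (-0.84, adjusted p = 0.00106) and had -0.32 at 24 h (adjusted p = 0.0766). BTG1, of the same adaptor family as TOB1, rose at 6 h (0.52, adjusted p = 6.75e-04) and had 0.03 at 24 h, where another of its probe sets passed as lower (-0.23, adjusted p = 0.049). NOCT, a circadian relative of the deadenylases, rose 2.98-fold at 6 h (1.57, adjusted p = 2.26e-04), and its other probe set did not pass (adjusted p = 0.27; 1.02 with the mean over both). The count that rose at 24 h became 1 without PBS replicate 1 or 3 or any 24 h replicate, and the count that fell became 2 without 24 h replicate 2.

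Of 18 tested genes of decapping and 5′ decay, 6 fell at 6 h and 5 at 24 h, near the 27.4% and 22.9% of all genes that fell. Limma called 0 higher at either time (1 and 0 at an unadjusted p under 0.05, and 1 at 6 h after adjustment without 24 h replicate 2), beside 15% and 17.5% of all genes. The medians were -0.11 and -0.09. NUDT16, a cytoplasmic decapping enzyme, fell at both times (-0.74 and -0.31, adjusted p = 7.4e-05 and 0.00615). LSM4, of the ring that binds deadenylated RNA, fell at 6 h (-0.44, adjusted p = 1.44e-04; -0.28 with the mean over its probe sets). PATL1, which bridges that ring to the decapping enzyme, fell at 24 h (-0.49, adjusted p = 0.00418; -0.32 with the mean over its probe sets). DDX6, the helicase of P-bodies, had -0.43 at 6 h (adjusted p = 0.00195) and -0.24 at 24 h (adjusted p = 0.0278). The 6 h call was lost with the mean over its 3 probe sets (adjusted p = 0.0562). The 24 h call was lost in 7 alternatives, among them leaving out any of PBS replicates 2 and 3 and 24 h replicates 1 and 3 (adjusted p up to 0.0809). The other 2 DDX6 probe sets did not pass.

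The RNA exosome and its Ski helper complex degrade RNA from the 3′ end. Of 17 tested genes, 3 rose and 2 fell at 6 h (15% and 27.4% of all genes), and 6 rose and 2 fell at 24 h (17.5% and 22.9%). EXOSC4, a ring subunit, rose at both times (0.59 and 0.42, adjusted p = 5.87e-05 and 2.64e-04), and DIS3L, the cytoplasmic exosome nuclease, fell at both (-0.85 and -0.66, adjusted p = 1.09e-04 and 3.45e-04). EXOSC5 rose at 24 h (0.51, adjusted p = 0.00124), and so did EXOSC6 (1.15, adjusted p = 0.00104), whose other probe sets gave 0.56, which passed, and 0.02, which did not (mean over the probe sets 0.58).

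ZFP36 proteins are held inactive by phosphorylation through p38 and MAPKAPK2 and by 14-3-3 proteins, and phosphatases reverse this. Of 16 tested genes of this group, 4 rose and 2 fell at 6 h, where 15% and 27.4% of all genes did. At 24 h 5 rose and 2 fell, where 17.5% and 22.9% did. DUSP1, the phosphatase that turns p38 off and itself an mRNA with AU-rich elements, rose 5.79-fold at 6 h and 2.89-fold at 24 h (2.53 and 1.53, adjusted p = 3.92e-07 and 3.62e-06), while another of its 3 probe sets passed at 6 h alone and a further one at neither time (0.70 at 24 h with the mean over the probe sets). MAP2K6, a kinase that activates p38, fell at both times (-2.02 and -2.78, adjusted p = 1.46e-04 and 1.96e-05), with 2 of 3 arrays above control at 24 h and another probe set that did not pass (-1.73 at 24 h with the mean over the probe sets). PPP2CB, a catalytic subunit of PP2A, rose at both times (0.34 and 0.22, adjusted p = 7.87e-04 and 0.00699), calls that were lost with the mean over its 2 probe sets (adjusted p = 0.0568 and 0.939). PPP2R1A, its scaffold subunit, fell at 6 h (-0.39, adjusted p = 0.0439), a call lost in 11 alternatives, among them leaving out any array but 6 h replicate 2 and 24 h replicate 1 (adjusted p up to 0.134). The count that fell became 1 at 6 h without PBS replicate 1, 2 or 3, 6 h replicate 1, or 24 h replicate 2 or 3. At 24 h it became 1 without PBS replicate 1 or 2 or 24 h replicate 1.

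Messages with known AU-rich elements, the class that ZFP36 proteins act on, were mostly higher with HAase. Of 33 tested, 26 rose and 2 fell at 6 h, where 15% of all genes rose and 27.4% fell. At 24 h 27 rose and 0 fell (0 at an unadjusted limma p under 0.05 also), where 17.5% and 22.9% of all genes did. The medians were 2.53 and 1.54. Between the times, 15 were lower and 9 higher at 24 h than at 6 h, where 13.3% of all genes were lower and 19.8% higher. The list was drawn up with earlier results of these arrays known, so its direction is no independent evidence. The filter on dim genes used the mean over all 9 arrays. CCL20, FOS, LIF and NR4A1 (PBS means 4.21, 10.5, 25.19 and 26.44) passed its cut of 34.7 only through their HAase arrays. Such genes can only appear as higher, and they are part of the counts and medians. TNF, CSF3 and CCL2, with means below the cut in every group, were not tested. CCL20, a chemokine that draws lymphocytes, was at or below control with PBS and was at least 183-fold higher at 6 h and at least 9.95-fold at 24 h. LIF, a cytokine of the interleukin 6 family, was at least 44.8-fold and at least 6.14-fold higher. CXCL8, a neutrophil chemokine, rose from a mean of 100.4 to 16550 at 6 h and 25100 at 24 h, and CXCL3, of the same family, from 46.55 (1 of 3 arrays above control) to 1304 and 2736. CCL20 and LIF were thus lower at 24 h than at 6 h, as ZFP36 and ZFP36L1 were (-4.20 and -2.87, adjusted p = 2.23e-07 and 4.93e-05), and CXCL8 and CXCL3 were higher (0.60 and 1.06, adjusted p = 0.00118 and 0.00498). TXNIP, which limits glucose uptake and whose destabilization the title of the study names, fell at 6 h (-0.35, adjusted p = 0.00169). Its log2 fold change at 24 h was 0.19 (adjusted p = 0.028), lost in 9 alternatives, among them leaving out any PBS replicate or 24 h replicate 1 or 2 (adjusted p up to 0.0838). With the mean over its probe sets it was 0.08 (adjusted p = 0.544). The TXNIP probe sets other than the brightest had 0.09 and -0.05.

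**Figure D4:**
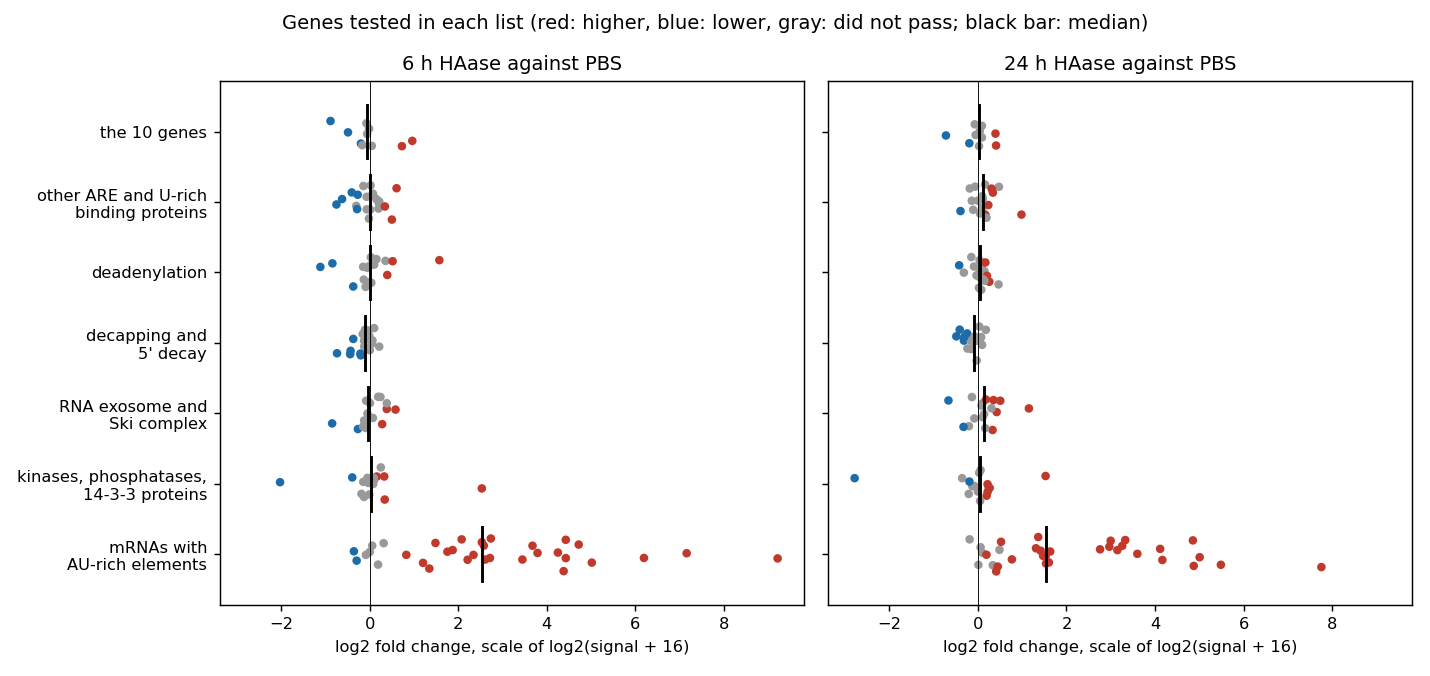
Log2 fold change against PBS (x axis) of each tested gene in the 10 genes and in 6 lists by role (rows), with 6 h on the left and 24 h on the right. Red is higher, blue lower, gray did not pass, and black bars are medians. The medians of the 10 genes and of the decay lists lie near 0, and that of the mRNAs with AU-rich elements lies at 2.53 and 1.54.

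Markers of other cells were measured beside the family. Of 8 leukocyte markers, 4 (ITGAM, LCP1, CD163 and CSF1R) lay above the control level on all arrays, and PTPRC and TYROBP on none. Their summed signal was 356 to 407.5 with PBS, 470.8 to 504.2 at 6 h and 995.1 to 1040 at 24 h. CD163 had the largest share of this sum at 24 h, with means of 81.19, 149.7 and 508.1 in the 3 groups, followed by CSF1R (81.04, 114.9 and 182.3) and LCP1 (74.98, 96.89 and 147.7). ITGAM (74.01, 61.41 and 80.49) passed the test at neither time, and CD14 and TYROBP were not higher than with PBS in the mean at either time. Their part in the changes of the ZFP36 family was not tested. Of 6 endothelial markers, PECAM1 lay above control on all arrays and CDH5, TEK and CLDN5 on none, with sums of 285 to 354, 383.8 to 435.6 and 431.8 to 462.8. PECAM1 held most of these sums (means 236.1, 315.7 and 348.8) and passed as higher at both times. VWF went the other way (51.7, 27.37 and 12.83), with 2 of 3 arrays above control with PBS and 0 at 24 h. KDR had means of 18.48, 38.16 and 39.75, and neither VWF nor KDR was tested. Of 7 epithelial markers, 5 lay above control on no array, and the sums were 324.6 to 557.1, 171.8 to 226 and 51.22 to 139.2. The others, KRT14 and KRT5, lay above control on all PBS and 6 h arrays and on 0 of 3 arrays at 24 h. Their means were 310.5, 92.81 and 14.68 for KRT14 and 77.6, 61.92 and 28.22 for KRT5. KRT14 passed as lower at both times and KRT5 at neither.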

How the data were processed

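RNA was measured on 9 arrays, 1 per sample, in 3 groups of 3. Per the series design text the authors generated sample tables from CHP files. Each deposited value is the signal intensity of a probe set on a linear scale. How probes were summarised is not given in the sources used here. These values were already scaled: the 2% trimmed mean was 500.07 to 500.075 on every array. No further normalization was applied.

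Of 54675 probe sets, 41091 had 1 platform symbol, 1801 had several, 11721 had none and 62 were controls. For each gene the probe set with the highest mean was used, and genes below the 30th percentile (34.7) were left out. Limma 3.58.1 in R 4.3.3 (lmFit, eBayes) was fitted to log2(signal + 16) of 13842 genes on all 9 arrays, and separately to 26614 probe sets, 30 of them of the members, with Benjamini-Hochberg adjustment and a threshold of 0.05. The pseudocount of 16 understates changes of dim genes. Fold changes of probe sets at or below control in a group are bounds against that level. Median residual SD comes from the gene fit. Tested on simulated data for the 6 h comparison with 13842 genes, the fit recovered 28% of genes changed by 0.4 on the log2 scale, 66% at 0.7, 74% at 1 and 94% at 2. In the simulation 50 genes were changed at each size and 13642 were not, while 42.4% of genes passed in the real comparison. With so few changed genes the adjustment is stricter than in the data, so these rates are no estimate for the data.

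Same-numbered replicates did not deviate together (r from -0.048 to 0.033), so replicate numbers were taken as names. Named genes were all members, up to 4 genes per list by size of change, TXNIP, and the 3 nearest patterns of each ZFP36 gene. The members, lists and motifs were chosen with earlier results of these data known. The number of arrays limits the precision.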

Additional observations from a re-analysis of the deposited data

Results flagged for a closer look

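For 5 of the 10 genes the level differed between the HAase groups, by the limma test of 24 h against 6 h at an adjusted p under 0.05, which 33.1% of all genes passed. No PBS arrays are from 6 h, so the length of exposure and the harvest time cannot be told apart in this difference. The difference was -0.32 for ZFP36, -0.56 for ZFP36L1, 0.53 for AUH, 0.16 for CNOT7 and 0.26 for XRN1, all as log2 fold changes. The calls of ZFP36 and CNOT7 were lost in 12 and 11 of 19 alternatives, and 3 of the 5 calls were left without 6 h replicate 2 or 3 or any single 24 h replicate. The rise of ZFP36L1 was smaller at 24 h under all 19. AUH was 1.40-fold lower at 6 h and near the PBS level at 24 h.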

How the results depend on the processing

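Of 570 member values under alternatives (10 genes, 3 comparisons, 19 alternatives each), 501 kept direction and side of the threshold, 48 lost a call, 8 gained one and 13 changed sign, with 0 of the 13 past the threshold in either setting. With the mean of probe sets, 6 h values changed sign to 0.074 for ELAVL1, -0.300 for KHSRP, 0.034 for HNRNPD, 0.029 for CNOT7 and 0.012 for PATL1, XRN1 at 24 h to -0.004 and KHSRP between the times to 0.359. With equal medians ELAVL1 at 6 h became 0.020, and with quantile normalization ZC3HAV1 at 24 h became -0.003 and PPP2R1A between the times -0.004. With arrays left out, values on both sides of 0 ranged at 6 h from -0.038 to 0.022 for ELAVL1 and -0.005 to 0.110 for KHSRP, at 24 h from -0.039 to 0.070 for KHSRP and -0.068 to 0.064 for ZC3HAV1, and between the times from -0.089 to 0.031 for KHSRP and -0.038 to 0.149 for PPP2R1A. With arrays left out in turn, member genes called ran from 2 to 3 at 24 h, from 4 to 6 at 6 h and from 3 to 4 between the times, and member probe sets from 2 to 5, from 6 to 9 and from 3 to 5. All genes called ran from 4832 to 5454, from 4913 to 5820 and from 3728 to 4402. At 24 h the member count became 2 with the mean of probe sets and with only the 2 groups compared. The probe set count became 3 with no filter, with only the 2 groups compared and with the replicate block. Between the times the member count became 3 with no filter, 2 with the mean of probe sets, 8 with trended and robust variance, 3 with only the 2 groups compared and 3 with the replicate block. Calls lost with the block were HNRNPD at 24 h and ZFP36 and CNOT7 between the times, and the replicate numbers did not pair the samples. The probe set count became 3 with no filter, 8 with the 50th percentile filter and 11 with trended and robust variance. The cause was not tested. Where an array is left out, the number of samples is smaller too, and its part was not told apart from that of the array. Calls gained, with trended and robust variance or the 50th percentile filter, were CNOT1, ZFP36L2 and HNRNPD between the times and XRN1 at 6 h, which also passed without 6 h replicate 1. Scaling to equal medians moved the share of calls that are higher from 43.4% to 47.6% at 24 h and from 35.4% to 40.5% at 6 h. Labels give no culture, plate or scan batch. With 3 arrays per group, calls of log2 changes near 0.4 were not equally stable. At 24 h the call of ZFP36 (0.41) held under all 19 alternatives, and that of ZFP36L1 (0.40) was lost in 6. The mean of probe sets was not run for probe set counts.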
